A study of Mus musculus with 6 samples.

Results

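DES cluster 8 is a group of 203 epithelial cells from the uteri of mice that were exposed to diethylstilbestrol (DES), a synthetic estrogen, just after birth. Its members were the cells to which the deposited metadata give the number 8 in the clustering of DES epithelial cells and for which a column of counts was held. They made up 4.41% (95% exact binomial interval 3.83 to 5.04) of the 4608 DES epithelial cells with a cluster number and counts, which fall into 16 clusters. All female CD-1 mice were given corn oil (CO) or DES in corn oil at 1 mg/kg/day by injection under the skin on days 1 to 5 after birth, and uteri were taken at 12 months of age. The single-cell series holds 48699 cells, 16312 in a DES library of 4 pooled uteri and 32387 in a CO library of 2 pooled uteri. The CO mice were chosen in estrus, and the DES mice were in persistent estrus. Spatial RNA was measured in 2 CO and 2 DES sections, each from a mouse of its own and cored around areas of interest; the blocks had been examined for luminal and glandular epithelium and, in DES, for adenocarcinoma. CO section 2 had a substantial tissue fold, and DES section 2 was limited for telling clusters of spots apart. For these reasons the study based most of its spatial analyses on the other section of each group. All sections were used here, and each was also left out in turn. Basal cells, those with more than 1 unique molecular identifier (UMI) of both Krt14 and Trp63, had been set apart by the authors before the epithelial clustering, and no cell of DES cluster 8 met that rule; 4 of the other clustered DES cells, 1 each in DES clusters 0, 6, 9 and 11, still did.

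Uterine glands form by invagination of the luminal epithelium and secrete the fluid that an embryo needs to implant. FOXA2, a forkhead transcription factor, is the standard marker of the gland lineage in the mouse uterus and is needed for gland formation and secretion. Mature mouse glands make serine proteases (Prss28, Prss29), the protease inhibitor Spink1, the chemokine Cxcl15 and, at implantation, the cytokine Lif, whereas luminal cells carry other secreted and surface proteins. The reference for mature glands is CO cluster 13, with 62 cells.

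DES cluster 8 had 5987122 UMIs, with a median of 22082 per cell (range 1443 to 157174), 4685 genes and a mitochondrial share of 12.3%. In the other 15 DES clusters the medians ran from 6343.5 to 65030.5 UMIs and from 7.90% to 13.2% mitochondrial UMIs, and CO cluster 13 had a median of 12201 UMIs and 7.09%. The libraries shared 180 cell barcodes, none of them from DES cluster 8. The UMIs of each group were added up and expressed as counts in 1e6 UMIs (CPM), with exact Poisson 95% intervals, which, like the intervals of shares, cover counting error only. There was 1 library per condition and the clusters were formed on these same counts, so the values from cells are a description with no replicate check and no test.

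The name "gland-like" held for DES cluster 8 in part. Foxa2 (chr2:148042877-148046969 in GRCm38, minus strand) stood at 49.9 CPM (44.4 to 55.9; 299 UMIs) in DES cluster 8 and at 14.9 CPM in the 4405 other clustered DES cells, a ratio of 3.36 (2.96 to 3.79). DES cluster 8 was second of the 16 DES clusters for Foxa2. DES cluster 14 was above it at 68.9 CPM (58.8 to 80.2), and DES cluster 5 was below it at 37.2 CPM (33.3 to 41.4); neither interval overlapped that of DES cluster 8. CO cluster 13 held 82.0 CPM of Foxa2 (64.3 to 103), so that DES cluster 8 stood at 0.609 (0.470 to 0.798) of the mature gland level. Foxa2 was not limited to gland clusters in the control uterus, since CO cluster 11, which the study places in the luminal epithelium, held 21.8 CPM (17.3 to 27.0). The developing gland clusters CO 3 and CO 8 held 4.09 and 1.98 CPM. The study describes Foxa2 as enriched in several DES clusters and identifies no distinct gland cluster among them. By antibody staining it reports many more luminal cells with FOXA2 protein in DES than in CO uteri, and sporadic FOXA2 in DES glands. From this it takes some Foxa2-positive DES clusters to be gland cells that lack the normal gland pattern.

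Cxcl15, a chemokine made by gland cells (chr5:90794534-90803067, plus strand), had the highest ratio to the other DES cells among the mature gland markers with UMIs in DES cluster 8. Its level was 43.9 CPM (38.8 to 49.6; 263 UMIs) against 2.40 CPM in the other DES cells, a ratio of 18.3 (15.6 to 21.4), and the next cluster, DES cluster 9, had 9.44 CPM. CO cluster 13 had 16.8 CPM (9.43 to 27.8) and the CO luminal clusters 0.0878 CPM. Cxcl15 was thus 2.61 times (1.55 to 4.73) as high in DES cluster 8 as in the control mature gland cells. This ratio leaned on few cells. A set of 14 cells, picked after the values were seen and described below, held 107 of the 263 UMIs, and without them the level was 28.6 CPM.

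The remaining label genes were also highest in DES cluster 8 among the DES clusters. Gstm7, a glutathione S-transferase that conjugates glutathione to reactive compounds (chr3:107926334-107931817, minus strand), stood at 220 CPM against 42.8 CPM, a ratio of 5.15 (4.86 to 5.47). Gstm7 does not separate gland from other cells in the CO uterus, because CO cluster 12, the cells that the study proposes as epithelial stem cells, held 1121 CPM and CO cluster 13 held 39.3 CPM. Aldh1a1, an enzyme that makes retinoic acid from retinaldehyde (chr19:20492715-20643465, plus strand), stood at 15.03 CPM (12.1 to 18.5; 90 UMIs) in DES cluster 8 and at 2.17 CPM in the other DES cells, a ratio of 6.93 (5.43 to 8.76). It was higher in CO cluster 13, at 41.5 CPM, and in CO cluster 12, at 83.2 CPM. The study describes Aldh1a1 in rare cells of DES cluster 4 and as differentially expressed in no DES cluster. It reports ALDH1A1 protein now and then in the deepest DES glands and proposes that the RNA of DES cluster 4 came from gland cells.

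**Figure D1:**
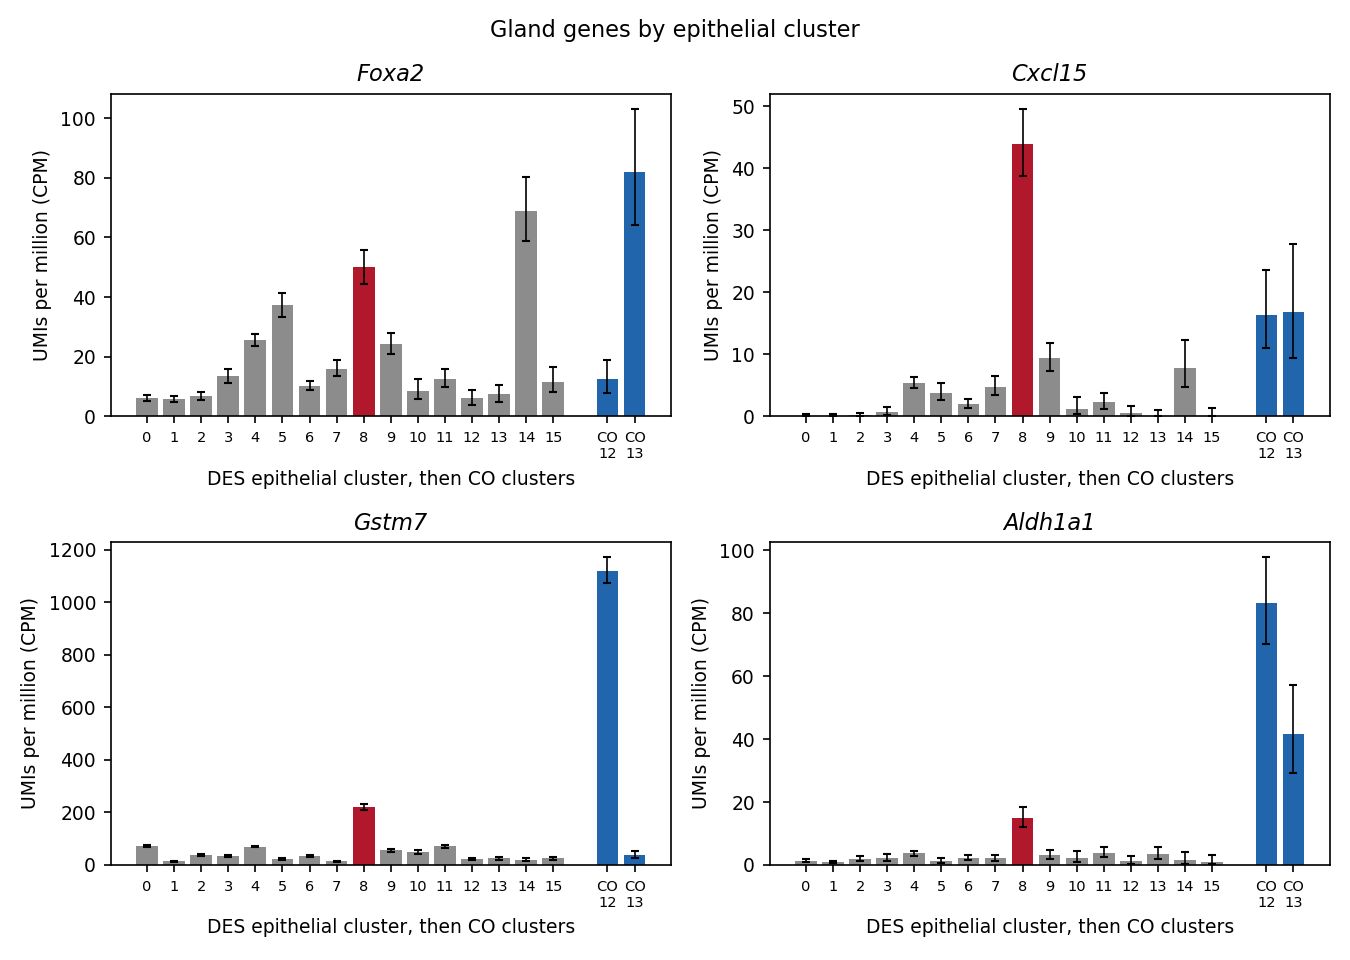
Level of Foxa2, Cxcl15, Gstm7 and Aldh1a1 (y axis, CPM of summed UMIs; bars start at 0) in the 16 DES epithelial clusters and in CO clusters 12 and 13 (x axis), with exact Poisson 95% intervals as error bars. DES cluster 8 (red) is the highest DES cluster for Cxcl15, Gstm7 and Aldh1a1 and is second to DES cluster 14 for Foxa2; CO clusters are blue.

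The protease and protease inhibitor genes of mature glands were not detected in DES cluster 8. Prss29 had 45665 UMIs (51277 CPM) in CO cluster 13 and none in DES cluster 8, which was at least 102334-fold lower when 3 UMIs were taken as the floor. On the same floor Prss28 was at least 31479-fold lower and Spink1 at least 35591-fold lower, from 15773 and 17834 CPM in CO cluster 13. No other DES epithelial cluster had a UMI of these 3 genes. The odorant-binding protein gene Obp2a also had no UMI in DES cluster 8, against 527.8 CPM in CO cluster 13, and was at least 1053-fold lower. Lif was low in both, with 1.34 CPM in DES cluster 8 and 3.37 CPM, from 3 UMIs, in CO cluster 13. Over the 7 mature gland markers the summed level in DES cluster 8 was 110 CPM, the highest of the 16 DES clusters, and 85028 CPM in CO cluster 13. In DES cluster 8 nearly all of this sum came from Cxcl15 and the label genes Foxa2 and Aldh1a1. Its rank therefore repeats the levels given above. DES cluster 8 therefore carried Foxa2 and Cxcl15 without a UMI of these secreted products, and in this it was unlike CO cluster 13. That reference is from 1 library, and Prss28, Prss29 and Spink1 were near 0 in the CO sections as well. Their absence therefore does not settle whether the name mature gland applies to DES cluster 8.

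The share of cells with a UMI followed the summed levels once cells were thinned to 3000 UMIs each, which left out 1 of the 203 cells of DES cluster 8, 48 of the other DES cells and 2 of CO cluster 13. Foxa2 was detected in 28 of 202 thinned cells of DES cluster 8, or 13.9% (9.41 to 19.4), against 4.15% of the other DES cells, 17.9% of DES cluster 14 and 23.3% of CO cluster 13. Without thinning the shares were 60.1%, 26.3%, 71.6% and 43.5%. In the luminal CO cluster 11 the share was 5.15% with thinning and 43.3% without. DES mesothelial cells, which should lack the gene and had a median of 12329 UMIs, held a Foxa2 UMI in 0.106% of thinned cells, a measure of the free RNA in the library.

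Gstm7 was detected in 35.1% of thinned cells of DES cluster 8 (81.3% without thinning), 10.3% of the other DES cells and 0.873% of DES mesothelial cells. Cxcl15 was detected in 7.92% (27.6% without thinning), against 0.505% of the other DES cells and none of 3782 mesothelial cells, where a count of 0 allows up to 0.0793%, taken here and below as 3 cells of the total. Aldh1a1 was detected in 4.95% (21.7% without thinning) against 0.711% of the other DES cells; mesothelial cells express this gene themselves, with 31.3% of thinned cells positive. Prss29 was found in 0 of 202 thinned cells of DES cluster 8, where a count of 0 allows up to 1.49%, and in 93.3% of CO cluster 13. In the CO library the same protease was also seen in 6.94% of thinned mesothelial cells, which should lack it, and the part of free RNA in the CO values was not tested.

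Within DES cluster 8 the label genes did not mark the same cells throughout. Without thinning, 122 of 203 cells held a Foxa2 UMI, 165 a Gstm7 UMI and 44 an Aldh1a1 UMI. The 3 genes were found together in 27 cells, at least 1 of them in 186 cells and none in 17 cells. With each cell thinned to 3000 UMIs, the 3 genes were found together in 3 of 202 cells, at least 1 of them in 94 cells and none in 108 cells (53.5%), so that these counts follow depth. Foxa2 and Cxcl15 were found together in 41 cells without thinning and in 2 cells with it. The per-cell level of Foxa2 had a median of 33.4 CPM and a maximum of 260 CPM, and that of Gstm7 a median of 114 CPM and a maximum of 1914 CPM. Cxcl15 and Aldh1a1 were the least even, with 58.2% and 52.2% of their UMIs in the 10 cells that held the most. Leaving out 14 cells chosen after their values were seen, those with a UMI of Asb4 or Bpifb5, 2 genes high in control glands, Cxcl15 stood at 28.6 CPM and Foxa2 at 48.6 CPM.

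Among the 2819 genes with at least 50 CPM in DES cluster 8 or in the other DES cells, 21 (0.745%) were at least 2-fold higher in DES cluster 8 and 92 (3.26%) at least 2-fold lower. The median log2 ratio of all these genes was -0.02. Fewer genes lay 2-fold above the other DES cells than 2-fold below them. A gene can pass the 50 CPM limit through the group where it is high alone, so the counts of list members at this limit, here and below, are a description. Foxa2 itself missed the 50 CPM limit narrowly, and Cxcl15 and Aldh1a1 lie below it, so they are not in these counts.

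Among the genes of at least 50 CPM the highest ratio was that of Gpx2, a glutathione peroxidase best known from gut epithelium (chr12:76792333-76795554, minus strand). It stood at 72.8 CPM in DES cluster 8 and 9.53 CPM in the other DES cells, a ratio of 7.64 (6.86 to 8.51), and at 366 CPM in CO cluster 13. Tesc, which encodes the calcium-binding protein tescalcin, followed with 73.0 against 13.6 CPM (ratio 5.38) and 82.0 CPM in CO cluster 13. Both are genes of the control gland that reach their DES maximum in DES cluster 8, Gpx2 well under the control level and Tesc close to it. Dlgap1, a scaffold protein gene, had 102 CPM against 19.1 CPM, and here DES cluster 14 was close, with 81.7 CPM.

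Some regulators of transcription were among the 15 genes with the highest ratio. Msx1, a homeobox factor of uterine epithelium, stood at 167 CPM against 48.1 CPM (ratio 3.48), with the top value, 189 CPM, in DES cluster 11. Id2 and Id3, inhibitors of basic helix-loop-helix factors, were 2.67 and 2.93 times as high in DES cluster 8 as in the other DES cells, with 354 and 148 CPM. For Id2 no DES cluster was higher, and for Id3 DES cluster 9 was, at 213 CPM. Among the 32 uterine and epithelial transcription factors listed, 15 reached 50 CPM, 1 of them (Msx1) was 2-fold higher, and none was 2-fold lower, where 0.745% and 3.26% of all genes were. Sox17, a partner factor of the gland programme, had 250 against 214 CPM. Sox9 had 42.6 against 53.5 CPM in DES cells and 885 CPM in CO cluster 13.

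Other genes high in DES cluster 8 were Wfdc15b, a WAP-domain protein (129 against 38.1 CPM), Gstm1, a second glutathione S-transferase (241 against 101 CPM), Tgfbi, a matrix protein (65.5 against 25.04 CPM), and Cyp2f2, a cytochrome P450 of airway secretory cells (50.6 against 12.2 CPM). Cyp2f2 had no UMI in CO cluster 13 and was highest in DES cluster 14, at 62.3 CPM. The unnamed transcript AC167121.2 had 1125 CPM in DES cluster 8, 266.5 CPM in the other DES cells and 53.9 CPM in CO cluster 13. No position was matched for it.

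**Figure D2:**
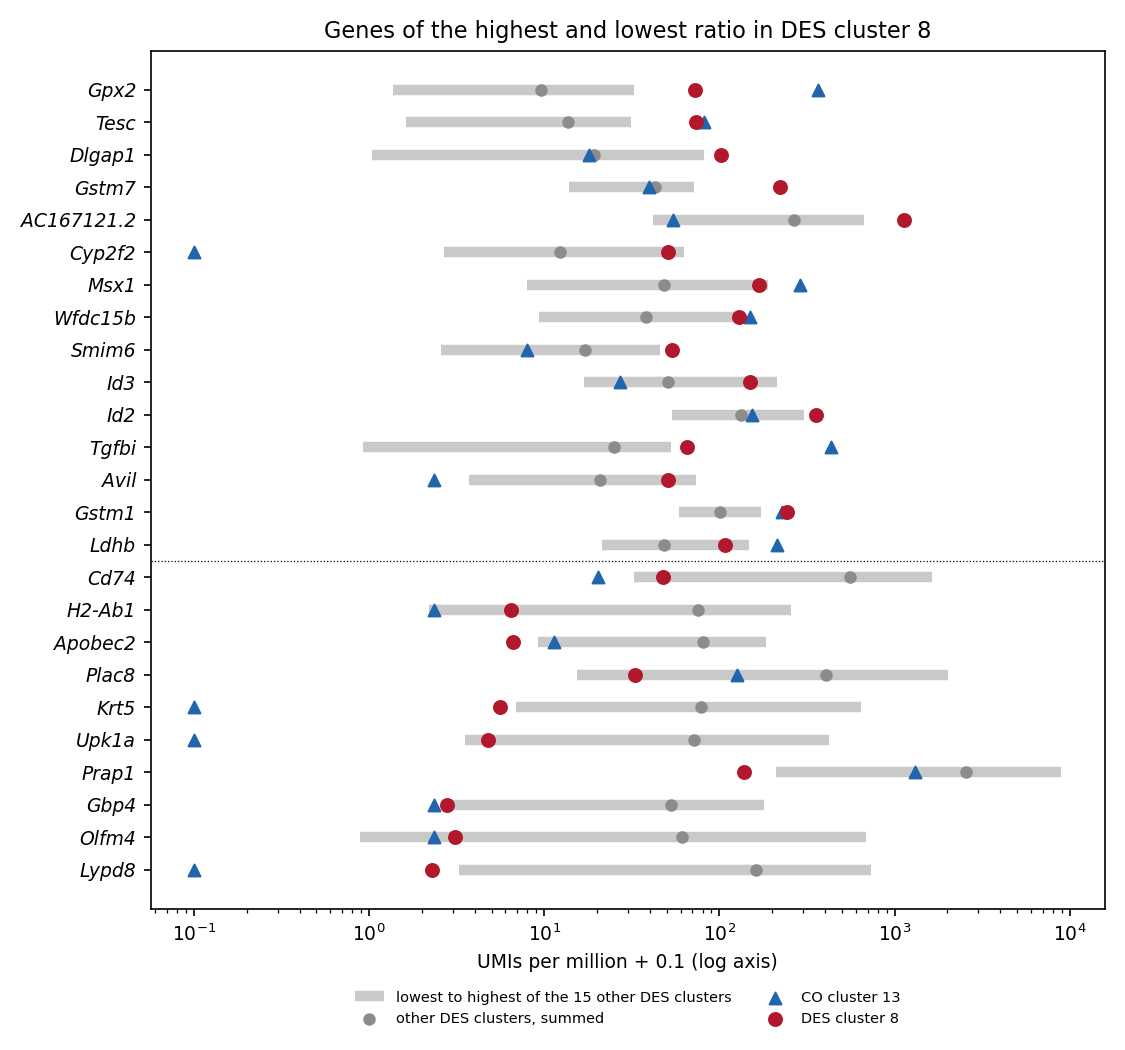
Level of the 15 genes with the highest and the 10 with the lowest ratio of DES cluster 8 to the other DES epithelial cells (x axis, CPM + 0.1 on a log scale; 1 gene per row). Red points are DES cluster 8, grey points the other DES cells summed, grey bars the range over the other 15 DES clusters and blue triangles CO cluster 13; Gpx2 is at 72.8 CPM against 9.53 CPM and Prap1 at 138 CPM against 2559 CPM.

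Among the genes on the low side, Lypd8, a secreted LY6-family protein of mucosal surfaces, stood at 2.17 CPM in DES cluster 8 and 161.7 CPM in the other DES cells, 74.5-fold lower. Olfm4, a secreted glycoprotein that the study proposes as a cancer cell marker, stood at 3.01 against 60.7 CPM, 20.2-fold lower. For Olfm4 DES cluster 8 was not the lowest of the 16 clusters, and the study describes the gene as almost exclusive to DES cluster 5. Krt5, a basal keratin, had 5.51 against 78.6 CPM and was the lowest of the 16 clusters. The summed level of the 5 basal markers was 38.8 CPM, within the 26.0 to 760 CPM of the other clusters.

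Prap1, a proline-rich secreted protein of uterine epithelium, had 138 CPM in DES cluster 8 and between 211 and 8956 CPM in the other 15 clusters. It is a marker of developing glands in the study, on a list of 6 genes. Of the 4 that reached 50 CPM none was 2-fold higher and 1, Prap1, was 2-fold lower, where 0.745% and 3.26% of all genes were; Napsa, an aspartic protease, had 106 against 119 CPM and S100g, a calcium-binding protein, 316.5 against 580 CPM. Of those below 50 CPM, Klk1, a kallikrein, had 5.85 against 1.64 CPM, and Wnt7b had 6.85 CPM, the lowest of the 16 clusters, against 27.0 CPM.

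The genes of control glands were then chosen in CO cells alone. Genes of at least 50 CPM in CO cluster 13 and at least 4 times the level of the CO luminal clusters numbered 152, and all were counted, whatever their level in DES cells. Where a group had up to 3 UMIs the ratio was set at 3 UMIs as a bound, and 10 genes whose bound gave no direction counted as neither higher nor lower. In DES cluster 8, 37 of the 152 (24.3%) were at least 2-fold higher than in the other DES cells and 7 (4.61%) at least 2-fold lower. Of all 2753 genes of at least 50 CPM in CO cluster 13, 1.49% were higher and 1.96% lower. The genes higher in DES cluster 8 included Gpx2, Tesc, Msx1, Wfdc15b, Id2, Tgfbi and Gstm1, and those lower included Clu, the secreted chaperone clusterin (23.7 against 57.9 CPM).

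The gland genes were not held by DES cluster 8 alone, since 26 of them (17.1%) were 2-fold higher in DES cluster 11 than in its fellow DES cells, 20 (13.2%) each in DES clusters 7 and 9 and 16 (10.5%) in DES cluster 14. Of all genes of that CO level 1.34%, 1.45%, 2.65% and 1.13% were 2-fold higher in DES clusters 11, 7, 9 and 14. Without the 14 cells of DES cluster 8 with an Asb4 or Bpifb5 UMI the count was 25 (16.4%), where 1.02% of all genes of that CO level were higher. The gland genes are mostly low in DES cells, where a ratio rests on fewer UMIs than it does for all genes of that CO level.

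Counted another way, 146 of the 152 gland genes had more than 3 UMIs over the DES clusters, and DES cluster 8 was the highest of the 16 for 35 of them (24.0%). Over all 17756 genes with that many UMIs it was the highest for 1157 (6.52%). DES cluster 11 was next among the gland genes, with 20 (13.7%), and was the highest for 7.14% of all genes. DES clusters 14 and 15 had 15 gland genes each (10.3%) and were the highest for 11.6% and 9.21% of all genes. At the limit of 50 CPM DES cluster 8 was the highest of the 16 for 5.53% of all genes and the lowest for 8.41%. These shares describe 1 library.

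Luminal genes went the other way. Genes of at least 50 CPM in the CO luminal clusters and at least 4 times the level of CO cluster 13 numbered 183 and were all counted likewise. In DES cluster 8, 2 (1.09%) were at least 2-fold higher than in the other DES cells and 67 (36.6%) at least 2-fold lower, and 170 lay below them. Of all 2728 genes of at least 50 CPM in the CO luminal clusters, 0.183% were higher and 4.55% lower, and 60.7% lay below the other DES cells. The count of lower luminal genes was 57 (31.1%) in DES cluster 14 and 44 (24.0%) in DES cluster 11, where 4.84% and 2.71% of all genes of the CO luminal level were lower. Plac8, a small cysteine-rich protein, stood at 32.7 against 406.9 CPM, and Apobec2, a relative of the cytidine deaminases, at 6.51 against 80.8 CPM. The 8 luminal markers of the study summed to 180 CPM, the lowest of the 16 clusters (197.5 to 647 CPM in the others). Genes of at least 50 CPM in CO cluster 12 and at least 4 times the level of both the luminal clusters and CO cluster 13 numbered 25. At the limit of 50 CPM 16 of them were counted. Of these 3 were at least 2-fold higher in DES cluster 8 (the label gene Gstm7, Dlgap1 and Ccnd2). The transcript RP23-89C10.1 was the 1 at least 2-fold lower (162 against 402 CPM), and 6 of the 16 lay below the other DES cells. Of all 2819 genes at that limit 0.745% were 2-fold higher and 3.26% lower, and 1493 lay below.

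**Figure D3:**
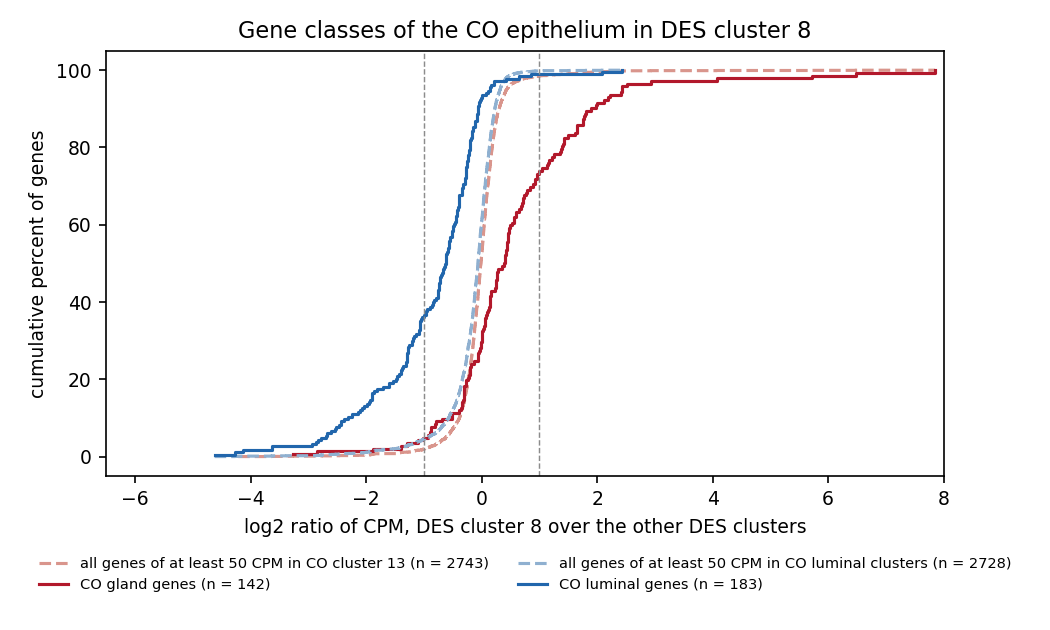
Cumulative percent of genes (y axis) by log2 ratio of DES cluster 8 to the other DES epithelial cells (x axis) for the CO gland genes (red, 142 with a ratio), the CO luminal genes (blue, 183) and, dashed, all genes of at least 50 CPM in CO cluster 13 or in the CO luminal clusters. Grey lines mark a ratio of 2-fold; the gland genes lie to the right of the genes of the same CO level, with a median of 0.40 against -0.01, and the luminal genes to the left, with a median of -0.63 against -0.06.

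Several secreted and estrogen-responsive genes were lower in DES cluster 8. Of the 14 estrogen-responsive genes listed, 8 reached 50 CPM, 4 were at least 2-fold lower and none was 2-fold higher, where 3.26% of all genes were lower and 0.745% higher. The antimicrobial iron-binding protein Ltf had 588 against 2421 CPM, the complement protein C3 252 against 960 CPM and the siderophore-binding protein Lcn2 732 against 2730 CPM. Ltf and Lcn2 are also among the CO luminal genes counted above, and CO cluster 13 held 579 and 847 CPM of them. Against CO cluster 13, 8 listed genes were counted. Of these 1 was 2-fold lower and none higher, where 14.5% and 8.33% of all genes were. The receptors themselves were near the level of the other DES cells. Esr1, the estrogen receptor, had 228 against 217 CPM, and Pgr, the progesterone receptor, 119 against 95.7 CPM, and none of the 3 steroid receptors that reached 50 CPM differed by 2-fold. Of the 21 secreted and mucosal genes 9 reached 50 CPM, 6 were 2-fold lower and none was 2-fold higher, read against the same shares, and the other 12 were below the limit.

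Enzymes of glutathione and retinoid metabolism were mixed; their counts at 50 CPM stand beside 0.745% of all genes higher and 3.26% lower. Of the 23 glutathione S-transferase genes 9 reached 50 CPM; Gstm1 and Gstm7 were at least 2-fold higher in DES cluster 8 and Gsto1 was lower, with 459 against 1659 CPM. Of the 21 glutathione and antioxidant genes 13 reached 50 CPM, and Gpx2 was the 1 that was 2-fold higher. Gpx1, the common peroxidase, had 651 CPM, the lowest of the 16 clusters, against 1155 CPM. Of the 18 retinoic acid genes 4 reached 50 CPM, none was 2-fold higher and 1 was 2-fold lower, Dhrs3, which turns retinaldehyde back to retinol (66.1 against 177 CPM). Rdh10, which makes retinaldehyde, had 312 against 157 CPM (ratio 1.99), the highest of the 16 clusters.

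Of the 9 Wnt ligands listed 2 reached 50 CPM, and 1, Wnt4, was at least 2-fold lower in DES cluster 8, where 3.26% of all genes were; Wnt7a had 47.4 against 63.2 CPM. The ligand Wnt4 stood at 26.6 CPM, the lowest of the 16 clusters, against 101.5 CPM in the other DES cells. Of the 13 Wnt receptors listed 4 reached 20 CPM, 1 above the other DES cells and 3 below, and none differed by 2-fold. The 1 above was Fzd10, with 87.4 against 48.4 CPM. Of the 14 listed target genes of Wnt/β-catenin signaling 3 reached 50 CPM and 1, Ccnd2, a D-type cyclin, was 2-fold higher, with 107 against 50.5 CPM, where 0.745% of all genes were 2-fold higher. At a limit of 20 CPM 8 target genes were counted, 2 at least 2-fold higher (Ccnd2 and Axin2), none 2-fold lower and 7 above the other DES cells. At that limit 0.962% of 5924 genes were 2-fold higher, 2.97% were lower and 2752 lay above the other DES cells.

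Axin2, Rnf43, Znrf3 and Notum, which restrain Wnt signaling, were highest of the 16 clusters in DES cluster 8, at low levels, as 6.52% of all genes with more than 3 UMIs were. Axin2 had 20.5 CPM (17.1 to 24.5) against 9.01 CPM, and the membrane ubiquitin ligases Rnf43 and Znrf3 had 28.4 against 16.1 CPM and 22.4 against 12.1 CPM. Notum, a secreted enzyme that inactivates Wnt proteins, had 5.85 against 0.848 CPM from 35 UMIs. The transcription factor Sp5, another target, also had its highest level in DES cluster 8, with 5.34 against 1.09 CPM from 32 UMIs. Nkd1, a further target that restrains the pathway, had 0.668 against 0.614 CPM, and Apcdd1 had no UMI in DES cluster 8. In DES cluster 14 the level of Notum was 5.36 CPM, within the interval of DES cluster 8 (4.07 to 8.13).

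Markers of other cells were low in DES cluster 8. The summed endothelial markers came to 2.004 CPM, the myocyte markers to 1.503 CPM and the lymphocyte markers to 3.01 CPM. Stromal markers summed to 114 CPM (78.6 to 216 in the other DES clusters), mesothelial to 20.2 CPM (16.7 to 37.1) and myeloid to 48.6 CPM (45.1 to 88.8). The stromal genes Dpt and Pdgfra, the endothelial gene Kdr, the T cell gene Cd3e and the macrophage gene Adgre1 had no UMI. DES cluster 8 thus lay within the range of the other DES clusters for each of these lists.

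Over the 16 DES clusters, the 5 genes whose log2 level followed Foxa2 most closely among 3700 were Col14a1 (Pearson r 0.866), Tmed2 (0.842), Sdhc (0.834), Wfdc15b (0.826) and Timp2 (0.820). These are correlations over clusters of 1 library that differ in depth, and they are given as a description. Col14a1, a fibril-associated collagen, had 17.2 CPM in DES cluster 8 and 51.6 CPM in DES cluster 14, which the order of Foxa2 also shows.

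Against CO cluster 13 the profile was far apart. Of 3192 genes of at least 50 CPM in either, 266 (8.33%) were at least 2-fold higher and 462 (14.5%) at least 2-fold lower in DES cluster 8. Of the 152 gland genes, which were chosen for a high level in CO cluster 13, 126 were at least 2-fold lower in DES cluster 8, 49 of them at least 10-fold, 24 lay within 2-fold, 2 were higher and 7 had no UMI. The antioxidant Gpx3 had 2.34 against 807 CPM, the sulfotransferase Sult1d1 29.4 against 847 CPM, and Clu 23.7 against 4695 CPM, 198-fold lower. The immediate early gene Fos had 71.0 CPM against 2372 CPM in CO cluster 13; library and treatment cannot be told apart here.

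The 3 genes with the highest ratio to CO cluster 13 were also high in the other DES cells. Ptn, the growth factor pleiotrophin, had 888 CPM against 8.98 CPM, a ratio of 98.9 (50.2 to 229), and 491.5 CPM in the other DES cells. Lypd2, a LY6-family gene, had 317 CPM against no UMI, at least 94.2-fold higher, and 185.8 CPM in the other DES cells. Serpinb7, a protease inhibitor, had 314 CPM against 2.25 CPM from 2 UMIs, a ratio of 140 (38.6 to 1155), and 184 CPM in the other DES cells. All 3 were higher still in DES cluster 14.

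Across 4688 genes the levels of DES cluster 8 had a Spearman correlation of 0.849 with CO cluster 12, the highest of the 15 CO clusters, and of 0.737 with CO cluster 13. The values with CO clusters 10, 2, 1, 4, 6 and 9, which are not gland clusters, were above that with CO cluster 13, at 0.786, 0.783, 0.782, 0.772, 0.772 and 0.746, and so was that with the developing gland cluster CO 8, at 0.740. DES cluster 9 had values of 0.879 and 0.737, so this likeness was not particular to DES cluster 8. Genes are not independent replicates, and these values are a description of likeness between libraries. The study's joint clustering of CO and DES epithelium split DES cluster 8. It placed 99 of its cells in joint cluster 3, which holds 721 DES cells and no CO cell, 69 in joint cluster 6, 24 in joint cluster 9, 9 in joint cluster 7 and 2 in joint cluster 10. Joint cluster 9 holds 297 DES cells and 45 CO cells, 44 of these from CO cluster 12. Joint clusters carry the numbers of the deposited metadata, in which 23 further cells of CO cluster 12 are in joint cluster 18; the study's text numbers one of the clusters holding those cells differently.

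The 4 larger groups within DES cluster 8 differed in label genes and in depth. The 24 cells of joint cluster 9 had 340 CPM of Gstm7, 50.7 CPM of Aldh1a1 and 352 CPM of Msx1, with 28.9 CPM (14.96 to 50.6) of Foxa2. The 69 cells of joint cluster 6 had the lowest Gstm7, Aldh1a1 and Msx1 of the 4, at 101, 4.34 and 97.7 CPM, and the highest Prap1, at 242.5 CPM, with Foxa2 at 47.1 CPM. The 99 cells of joint cluster 3 had 240 CPM of Gstm7, between those groups, and 48.5 CPM of Foxa2 (41.5 to 56.3), close to joint cluster 6. The 9 cells of joint cluster 7 had 71.0 CPM of Foxa2 (50.5 to 97.1) and 337 CPM of Gstm7.

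Of the cycling genes Mki67 was found mainly in the 9 cells of joint cluster 7, at 47.3 CPM (30.9 to 69.4) against 7.24 CPM (1.49 to 21.1) in joint cluster 9, 1.69 CPM in joint cluster 3 and no UMI in joint cluster 6. Their median depth was 57684 UMIs, against 29652, 16531 and 17289 in the cells of joint clusters 3, 6 and 9. Over the whole of DES cluster 8 Mki67 stood at 5.85 CPM, against 4.07 CPM in the other DES cells. The 14 cell cycle genes summed to 260 CPM, which ranked seventh of the 16 clusters.

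**Figure D4:**
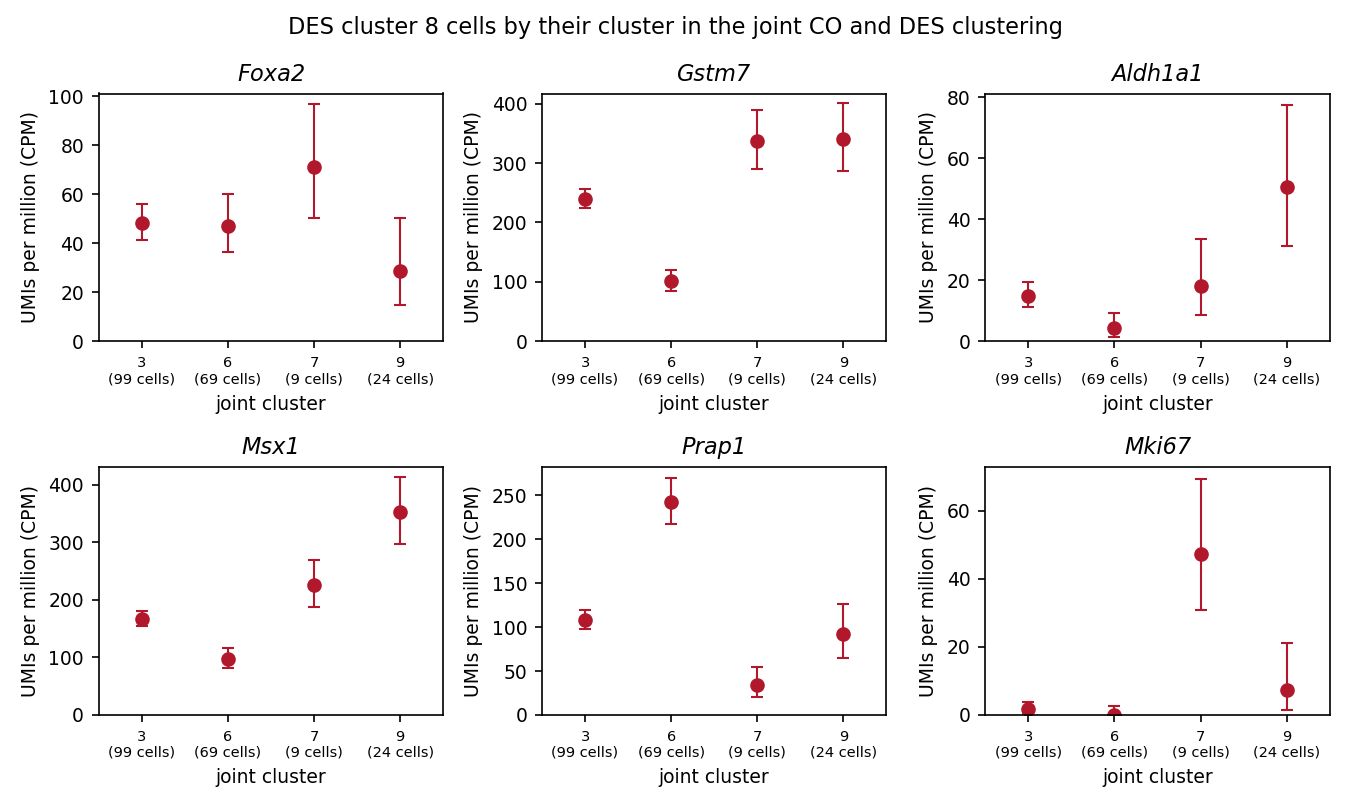
Level of Foxa2, Gstm7, Aldh1a1, Msx1, Prap1 and Mki67 (y axis, CPM from 0; points with exact Poisson 95% intervals) in the cells of DES cluster 8 split by the study's joint CO and DES clusters 3, 6, 7 and 9 (x axis; 99, 69, 9 and 24 cells). The 2 cells of joint cluster 10 are not drawn; Mki67 stands at 47.3 CPM in joint cluster 7 and at 1.69 CPM in joint cluster 3.

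The sections did not enter the clustering of cells, so genes named for DES cluster 8 were looked up there. The sections compare DES with CO over whole tissue, not DES cluster 8 with the other DES cells. A rise or fall there is therefore no check of a gene's level in DES cluster 8. Each section's UMIs were summed over all spots and tested for DES against CO with edgeR's quasi-likelihood test over 14098 genes, with Benjamini-Hochberg adjustment at 0.05. The spots hold stroma and muscle as well as epithelium, and fewer cells of a type and less RNA per cell cannot be told apart in such sums. In all, 376 genes (2.67%) were higher in DES and 371 (2.63%) lower. With 1 DES section left out, the spread was taken from the CO sections alone, and with 1 CO section left out from the DES sections alone. Calls were far fewer in the former fits and more numerous in the latter. A call lost without a DES section, here and below, therefore does not by itself show that the gene rests on that section. Each gene given below as fallen lost its call without either DES section.

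Foxa2 and Cxcl15 rose in the DES sections. Foxa2 had 4.48 and 3.44 CPM in the CO sections and 22.5 and 37.7 CPM in the DES sections, with no overlap. The log2 difference was 2.72 (SE 0.37, edgeR adjusted p = 0.0308), and with DES section 1 or DES section 2 left out the adjusted p was no longer below 0.05, at log2 differences of 3.05 and 2.24. Cxcl15 had 0.400 and 0.363 CPM in CO and 12.0 and 27.8 CPM in DES, a log2 difference of 5.47 (SE 0.63, edgeR adjusted p = 0.0241). Without DES section 2 the Cxcl15 call was lost, at a log2 difference of 4.67. Epcam, an epithelial surface protein, had 451.5 and 255.6 CPM in CO and 435 and 500.6 CPM in DES (edgeR adjusted p = 0.780). The muscle genes Actg2, Cnn1, Myh11, Acta2 and Des fell in the same sums, by 3.43, 2.50, 2.39, 1.89 and 2.03 on the log2 scale (edgeR adjusted p from 0.0156 to 0.0279). The stromal genes Dcn and Col3a1 fell by 1.84 and 1.69 (edgeR adjusted p = 0.0297 and 0.0424). None of these 7 calls held without DES section 1 or without DES section 2. The basal keratins Krt5 and Krt14 had log2 differences of 6.36 and 6.46 that did not pass the test (edgeR adjusted p = 0.142 and 0.104). Krt5 had 0.800 and 93.45 CPM in CO and 5276 and 3562 CPM in DES. Krt14 had 1.68 and 59.7 CPM in CO and 4175 and 2019 CPM in DES. For both genes the CO sections also differed widely from each other. The tissue held by the sections thus differed along with treatment, and its part in the values of Foxa2, Cxcl15 and the genes below was not tested.

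The other label genes did not pass the test. Gstm7 had 6.16 and 5.89 CPM in CO and 4.61 and 6.17 CPM in DES (log2 difference -0.36, edgeR adjusted p = 0.543), and the groups overlapped. Aldh1a1 had 33.4 and 20.9 CPM in CO and 12.8 and 12.9 CPM in DES (log2 difference -1.29, edgeR adjusted p = 0.0798); the groups did not overlap, and the gene passed the test with either CO section left out. Mesothelial cells also express Aldh1a1, as the single cells showed, and their part in the section values was not tested. Gpx2 had 32.7 and 10.5 CPM in CO and 8.23 and 16.9 CPM in DES (edgeR adjusted p = 0.431), with overlap and a sign that turned without CO section 1.

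Of the 15 genes with the highest ratio of DES cluster 8 to the other DES cells, all were tested in the sections, and 1 rose and 1 fell, where 2.67% and 2.63% of all genes did. Avil, the actin-binding protein advillin, rose from 24.6 and 21.0 CPM to 57.3 and 67.5 CPM (log2 difference 1.24, edgeR adjusted p = 0.0412). Msx1 fell, with 77.7 and 87.1 CPM in CO and 13.8 and 7.29 CPM in DES (log2 difference -3.18, edgeR adjusted p = 0.0212). The CO and DES sections did not overlap for either gene. Without DES section 1 or DES section 2 both calls were lost, with edgeR adjusted p = 0.203 and 0.325 for Avil and 0.0557 and 0.0860 for Msx1. AC167121.2 had 162.5 and 52.7 CPM in CO and 8.78 and 12.45 CPM in DES, with no overlap and a log2 difference of -3.55 that missed the threshold (edgeR adjusted p = 0.0501). The other 12 did not pass the test either, which recovered 57.8% of 4-fold and 2.04% of 2-fold changes in simulated data. Of the 10 genes with the lowest ratio 2 rose, Olfm4 and Upk1a, a uroplakin of barrier epithelia; the Upk1a call held without either DES section and the Olfm4 call did not.

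Of the 152 gland genes 142 were tested in the sections; 8 rose and 8 fell, where 2.67% and 2.63% of all genes did, and the median log2 difference was -0.14, against -0.01 over all genes tested. The gland kallikrein Klk1 fell from 4.64 and 2.54 CPM to 0.219 and 0.304 CPM (log2 difference -3.92, edgeR adjusted p = 0.0399), a call lost without DES section 1 or DES section 2. The proteases Prss28 and Prss29 and the inhibitor Spink1 were near 0 in the CO sections as well, with no Prss28 UMI in any section, at most 0.240 CPM of Prss29 and 2.36 CPM of Spink1 in CO section 2 alone. The sections therefore gave no comparison of these mature gland products. Of the 15 genes most above CO cluster 13, 5 rose and none fell, Ccnd2 among them, from 11.8 and 7.70 CPM to 35.2 and 33.0 CPM (log2 difference 1.59, edgeR adjusted p = 0.0466); that call too was lost without DES section 1 or DES section 2.

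**Figure D5:**
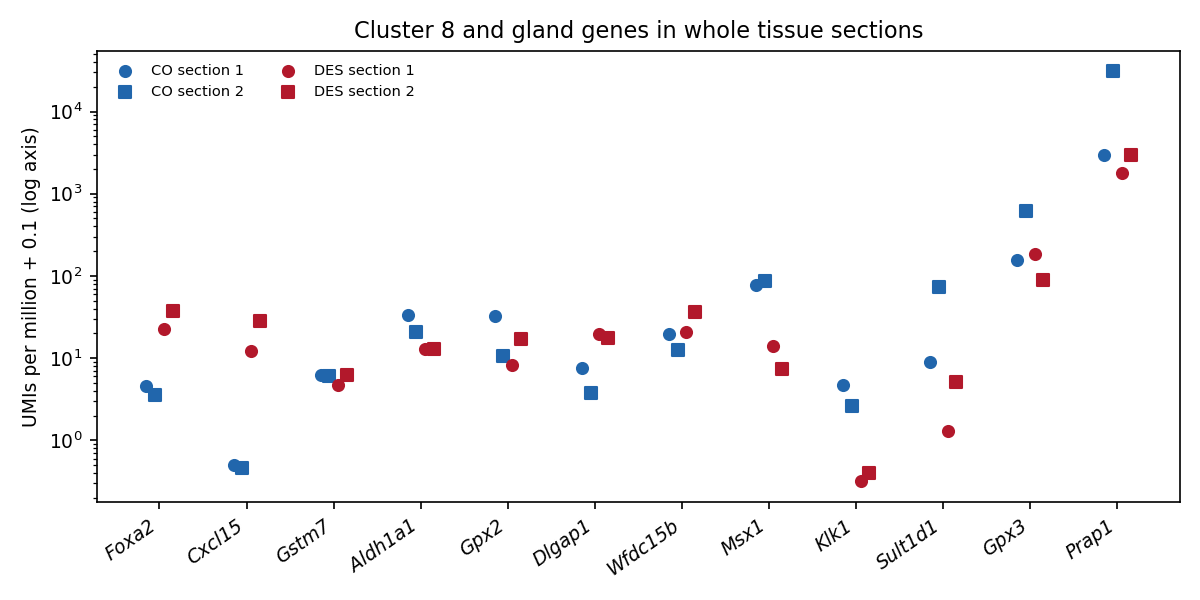
Level of 12 genes named for DES cluster 8 in each of the 2 CO and 2 DES sections (CPM + 0.1 on a log scale), 1 point per section. Foxa2 is at 22.5 and 37.7 CPM in the DES sections against 4.48 and 3.44 CPM in the CO sections, and Msx1 is at 13.8 and 7.29 CPM against 77.7 and 87.1 CPM.

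Spots with a Foxa2 UMI numbered 157 of 1575 (9.97%) and 253 of 1357 (18.6%) in the DES sections and 51 of 1433 (3.56%) and 36 of 1834 (1.96%) in the CO sections. In the DES sections they were deeper than the other spots, with medians of 11095 against 3613 UMIs and 12609 against 4306.5 UMIs. They were deeper in CO section 2 too, with 9443.5 against 4796 UMIs, and close to the others in CO section 1, with 6793 against 6652 UMIs. The level of Wfdc15b in these spots was 1.198 times (0.835 to 1.69) that of the other spots in DES section 1 and 1.51 times (1.22 to 1.87) in DES section 2. For Dlgap1 the ratios were 1.54 (1.09 to 2.16) and 1.27 (0.925 to 1.74). For Cxcl15 they were 1.78 (1.15 to 2.70) and 0.830 (0.633 to 1.08). Each of these 3 genes thus had an interval above 1 in 1 of the DES sections only. Epcam and the simple keratin Krt8, which mark epithelium at large, were higher in Foxa2 spots of both DES sections, 1.29 and 1.32 times for Epcam and 1.1402 and 1.286 times for Krt8. Cyp2f2 (1.47 and 1.31) and Avil (1.25 and 1.28), high in DES cluster 8, were above 1 in both, and so were Ltf (1.54 and 1.18) and Prap1 (1.08 and 1.44), which are low in it. The part of epithelial content in these ratios was not tested. Msx1, high in DES cluster 8, was lower there, at 0.231 and 0.143 of the other spots, and so was Aldh1a1, at 0.448 and 0.338; in the CO sections the Foxa2 spots held 1.62 (1.23 to 2.09) and 1.54 (1.138 to 2.04) times the Msx1 level of the others. Ldhb and Id3 were also lower, at 0.490 and 0.471 and at 0.810 and 0.702. The label gene Gstm7 stood at 0.784 (0.294 to 1.79) and 1.52 (0.884 to 2.60), with both intervals across 1. Gpx2 stood at 1.15 and 0.687 in DES and at 3.01 and 4.40 in CO. The Foxa2 spots of CO section 2 also held 4.50 times (3.75 to 5.37) the Krt5 level of its other spots, while those of CO section 1 held 1 Krt5 UMI. A spot can hold several cells, and these ratios do not show which genes share a cell. Among the clustered DES cells, DES cluster 8 held 299 Foxa2 UMIs in 122 cells and the other clusters 2353 in 1158 cells. Spots with a Foxa2 UMI therefore do not locate DES cluster 8.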

How the data were processed

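The authors made the single-cell counts (UMIs) with Cell Ranger 3.0.1 and the spot counts with Space Ranger 1.2.2, after bcl2fastq 2.20.0.422, on mm10 (per the submitters' processing notes), and deposited raw counts with metadata naming each cell's clusters. The deposited sequencing saturation, a fraction, was not used. The authors had removed potential doublets with scran, no further doublet call was made, and clusters were taken as deposited. The members, gene lists and comparisons were chosen with earlier results of these data known. UMIs were summed per cluster and scaled to CPM in Python 3.11.15 with numpy 2.4.6 and scipy 1.17.1. The same scaling was used for all 24077 genes. Genes named are those of the marker and pathway lists, the 15 highest and 10 lowest ratios to the other DES cells, the 15 highest and 15 lowest to CO cluster 13, and the 5 most like Foxa2, at 50 CPM or more, with 3 UMIs as the floor for a group without a UMI. The counts of gland and luminal genes with no limit on their level in DES cells were added after seeing the data. Shares were taken after thinning to 3000 UMIs with seed 20230.

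Section sums (12506177 and 11032957 UMIs in CO, 9117099 and 9880021 in DES) were tested in R 4.3.3 with edgeR 4.0.16 (TMM factors, filterByExpr, quasi-likelihood test). The p-values measure the spread between these sections. Tested on simulated data for this comparison over 14098 genes, the fit recovered 2.04% of 98 genes changed 2-fold and 57.8% of 102 changed 4-fold. The alternatives were DESeq2 1.42.0, its size factors, no filter, a replicate block, leaving out each section, other CPM limits, scalings, cell filters and gland rules. Gene positions are from GRCm38 with GENCODE M21. No sequence was printed, since none carries these results.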

Additional observations from a re-analysis of the deposited data

How the results depend on the processing

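Of the counts and shares recomputed, 38 stayed within 1.5 times or within their interval and 22 moved; of the values of single genes followed through every alternative (in the sections 6 genes: Foxa2, Cxcl15, Gstm7, Aldh1a1, Gpx2 and Prap1) 198 stayed, 47 moved, 3 lost and 4 gained a call and 1 changed sign. At a limit of 20 CPM, 57 genes were 2-fold higher and 176 lower in DES cluster 8 than in the other DES cells, 574 higher and 874 lower than in CO cluster 13, and 17 gland genes higher and 4 lower. Against the median of the other 15 clusters 55 genes were lower. Of the gland genes of at least 50 CPM in DES cells, 10 were higher and 1 lower, and the latter count became 2 with totals that left out the 20 most abundant genes, 2 with only cells of at least 5000 UMIs and at most 10% mitochondrial UMIs (47 cells of DES cluster 8) and 4 with gland genes at 2 times the luminal level. Without thinning the Foxa2 share was 60.1%. Leaving out the 20 most abundant genes moved the median log2 ratio to CO cluster 13 from -0.02 to -0.11. Leaving out the 14 cells with an Asb4 or Bpifb5 UMI, chosen after seeing the data, moved none of the counts past 1.5 times.

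In the sections DESeq2 called 822 genes higher and 969 lower. With a section left out the counts ran from 3 to 1311 higher and from 0 to 1508 lower; without CO section 1 they were 1311 and 1508, without CO section 2 1148 and 1188, without DES section 1 14 and 0, and without DES section 2 3 and 0. Of 58 named genes called with all sections, 57 kept the call without CO section 1, 57 without CO section 2, 5 without DES section 1 and 2 without DES section 2. At an unadjusted p under 0.05 the 4 sections gave 3438 genes. The section numbers do not pair the sections (correlation of deviations -0.0094), and with the replicate block 298 genes were higher and 229 lower. Aldh1a1 passed the test with DESeq2 (log2 difference -1.30) and without CO section 1 (-0.89) or CO section 2 (-1.61), Prap1 passed without CO section 1 (-3.89), and Gpx2 ran from -1.67 without DES section 2 to 0.086 without CO section 1, where its sign changed. A lone section was assumed to vary like the other group. The causes were not tested. With 1 library per condition, differences between cells cannot be told apart from differences between libraries, and genes of few UMIs, such as Lif, were not resolved at this depth.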

Other observations

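The UMIs of 2 genes of control glands lay in few cells of DES cluster 8. Asb4, an ankyrin repeat protein gene, had 70 UMIs (11.7 CPM) in DES cluster 8 against 0.0506 CPM in the other DES cells and 50.5 CPM in CO cluster 13. Bpifb5, a secreted protein of the BPI fold family, had 64 UMIs (10.7 CPM) against 0.120 CPM and 269.5 CPM. These UMIs lay in 14 cells, 4 of them with both genes, and the cells were picked after the values were seen. The UMIs were unevenly held, with 35 of the Asb4 UMIs in 1 cell and 55 in 3 cells, and 41 of the Bpifb5 UMIs in 3 cells. The cells had a median of 35601.5 UMIs, against 22061 in the remaining cells.

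Chosen for gland genes and deeper than the rest, the same 14 cells had 597 CPM of Gstm7 against 184 CPM in the rest of DES cluster 8, 200 against 28.6 CPM of Cxcl15 and 223 against 58.1 CPM of Gpx2. Foxa2 differed less, with 63.6 against 48.6 CPM. The hair keratin gene Krt83, which CO cluster 13 also expresses, had 16.8 against 0.917 CPM. Prss29 and Spink1 had no UMI in either group. These cells were spread over joint clusters 3 (6 cells), 7 (5 cells), 9 (2 cells) and 6 (1 cell).

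Some interferon-stimulated genes were lower in DES cluster 8 than in the other DES cells. Of 10 listed genes 2 reached 50 CPM, with 1 at least 2-fold lower, and 6 reached 20 CPM, with 4 at least 2-fold lower, where 2.97% of all genes were. A gene can reach the limit through the other DES cells alone. Irf7, a transcription factor of the interferon response, had 5.51 against 29.7 CPM, and Ifit1, an antiviral effector, 9.85 against 39.1 CPM. H2-Ab1, an MHC class II chain, had 6.35 against 75.2 CPM. Immune cell markers in DES cluster 8 were at the levels given above.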
